A study of Rattus norvegicus with 2 samples.

Results

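The genes described here make the secreted and membrane-bound metalloproteinases (MMP), the matrix proteinases with thrombospondin motifs (ADAMTS), the tissue inhibitors of metalloproteinases (TIMP) and the plasminogen activators of the rat retina. Members were taken by symbol: every gene whose symbol begins with Mmp, Timp or Adamts followed by a digit, together with Plau, Plat and Plaur, which gave 48 of the 32662 genes in the table. They comprise 22 MMP genes, 19 ADAMTS genes, 4 TIMP genes and 3 genes of plasminogen activation. The study sequenced ribosomal RNA-depleted RNA from retinas of female Long-Evans rats aged 2 months, with no genetic change stated. CTRL is a retina after a sham procedure, and IR12 is a retina taken 12 hours after reperfusion that followed ischemia. The labels give no collection time for CTRL, while the study's qPCR text names 12 hours when it compares injured with sham retinas. The methods speak of 2 retinas for the 2 samples, and each condition has 1 library, so no difference given here has a replicate check and no p-value was computed. The authors deposited FPKM, a unit that by its name scales reads to transcript length and to mapped reads, but whether a further scaling between libraries was used is not stated. Read totals are not in the table, though the study's text states more reads for IR12 than for CTRL. For genes of equal locus length, the lowest FPKM above 0 that at least 2 genes share was compared between libraries. At 17 of 25 locus lengths this value in CTRL was 1.71 times that in IR12, and at the others the quotient ranged from 0.427 to 29.0. If the shared lowest value is a single read at those 17 lengths, each read counts for less in IR12.

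MMPs are zinc proteases that are made as inactive proforms and together can cut most proteins of the extracellular matrix, while TIMPs bind their active sites and block them. ADAMTS proteases trim procollagens or cut the large proteoglycans that surround neurons, and the plasminogen activators turn plasminogen into plasmin, which degrades fibrin and removes the propeptides of several MMPs. In the injured retina this system has been studied for its part in the leakage of vessels, the entry of leukocytes and the loss of ganglion cells.

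The labelled tissue was checked against its markers first. All 6 rod markers were abundant in both libraries, with a summed FPKM of 14885 in CTRL and 18294 in IR12. Rhodopsin, the most abundant of them, had an FPKM of 6836 in CTRL against 7842 in IR12, so that both libraries carry the profile of a rod-rich retina. As deposited all 6 lay within 2-fold, and on the TPM scale Sag was past it (1.57).

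Of the 48 members, 27 had an FPKM of at least 1 in at least 1 library, the minimum used here, as did 13599 genes of the whole table. Differences are log2 ratios of (FPKM + 1), IR12 over CTRL, a scale that understates the change of genes with low FPKM. By this measure 11 members were higher in IR12 by at least 2-fold, against a background of 6.56% of the 13599 genes, and 2 were at least 2-fold lower, against 6.12%. The other 14 members over the minimum lay within 2-fold. When both libraries were rescaled to the same sum (TPM scale), 20.7% of the 13599 genes were higher in IR12 by at least 2-fold (2817 genes) and 3.21% at least 2-fold lower (436 genes), while the members on those sides numbered 11 and 1. That rescaling raises every FPKM of IR12 relative to CTRL by 0.65 on the log2 scale. It moves the median gene with an FPKM of 1 or more in both libraries from 0.03 to 0.60. Small non-coding RNAs took 67.9% of the FPKM sum in CTRL and 46.2% in IR12. With them left out of the common sum, the median of the same genes was -0.07. The median log2 ratio over the 27 members was 0.04, beside 0.02 over the 13599 genes, and on the TPM scale it was 0.35 beside 0.59. As deposited the members spread from -2.09 to 6.23.

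The minimum itself shapes these counts. Of the 27 members, 14 had an FPKM of at least 1 in both libraries, 9 passed through IR12 alone and 4 through CTRL alone. A gene that passes only through IR12 is by that selection the higher there, by a little or by much: 7 of those 9 members were at least 2-fold higher, as were 357 of the 641 genes of the whole table that passed this way (55.7%). Likewise 1 of the 4 members that passed through CTRL alone was at least 2-fold lower (Adamts18), as were 319 of 715 such genes (44.6%). Among the 14 members at 1 or more in both libraries, 4 were at least 2-fold higher (Timp1, Plat, Mmp14 and Adamts1), against 4.37% of 12243 such genes, and 1 was at least 2-fold lower (Timp3), against 4.19%. The median log2 ratio of these 14 members was -0.25, beside 0.03 over the 12243 genes. With no minimum at all, 11 of 48 members (22.9%) were at least 2-fold higher and 2 (4.17%) at least 2-fold lower, beside 2.73% and 2.55% of the 32662 genes. Adamts1, at a log2 ratio of 1.004, and Mmp14, at 1.02, lay just inside the limit for higher members, and Mmp12, at 0.75, lay just outside it, as did Mmp7, at 0.94, which was under the minimum. On the other side Timp3, at -1.10, lay just inside, and Adamts3, at -0.82, and Adamts12, at -0.76, lay just outside.

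**Figure D1:**
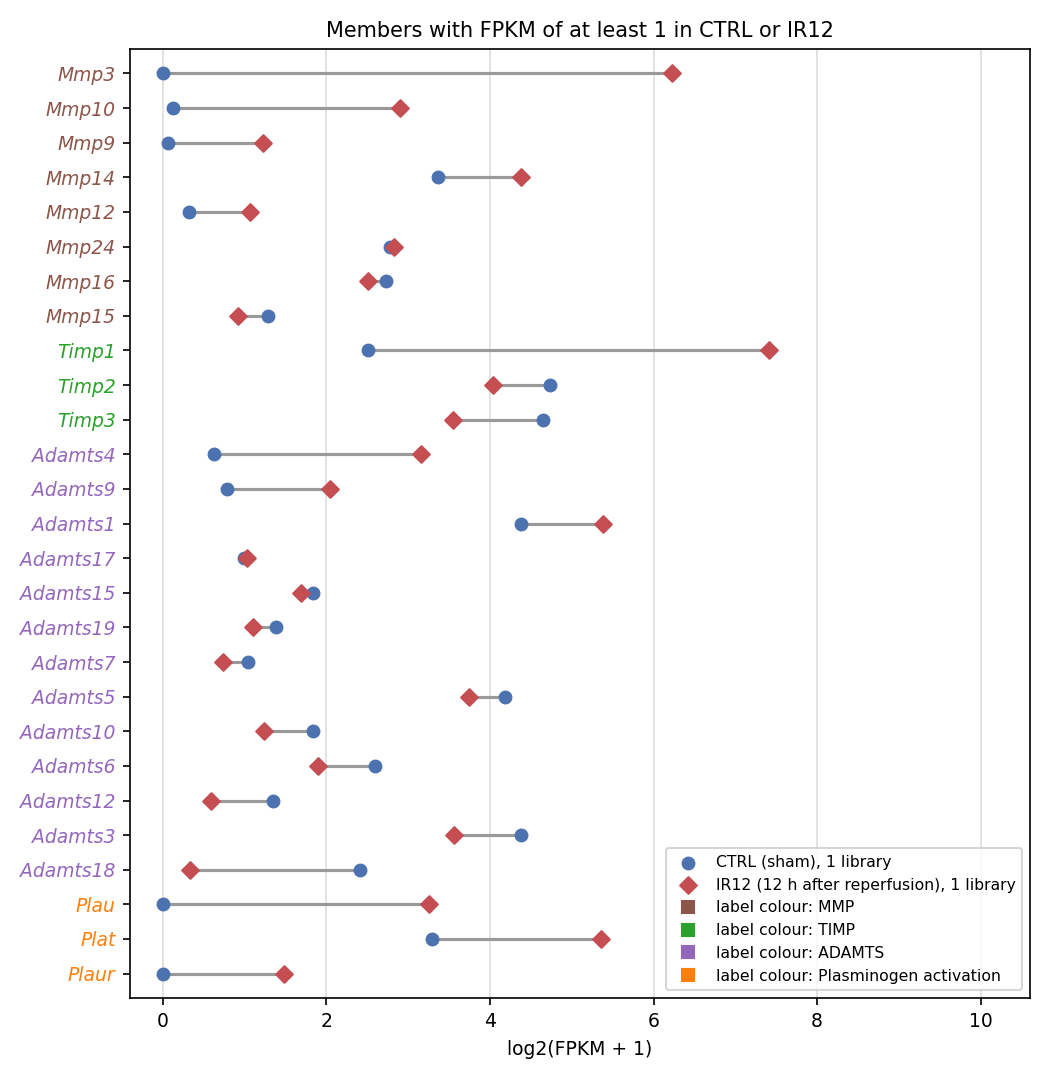
Level of each of the 27 members that reach FPKM 1 in either library, as log2(FPKM + 1), in CTRL (circles) and IR12 (diamonds), 1 library each. Label colours mark the 4 classes. Mmp3 and Timp1 have the longest lines, and within the TIMP class Timp1 lies to the right in IR12 while Timp2 and Timp3 lie to the left.

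**Figure D2:**
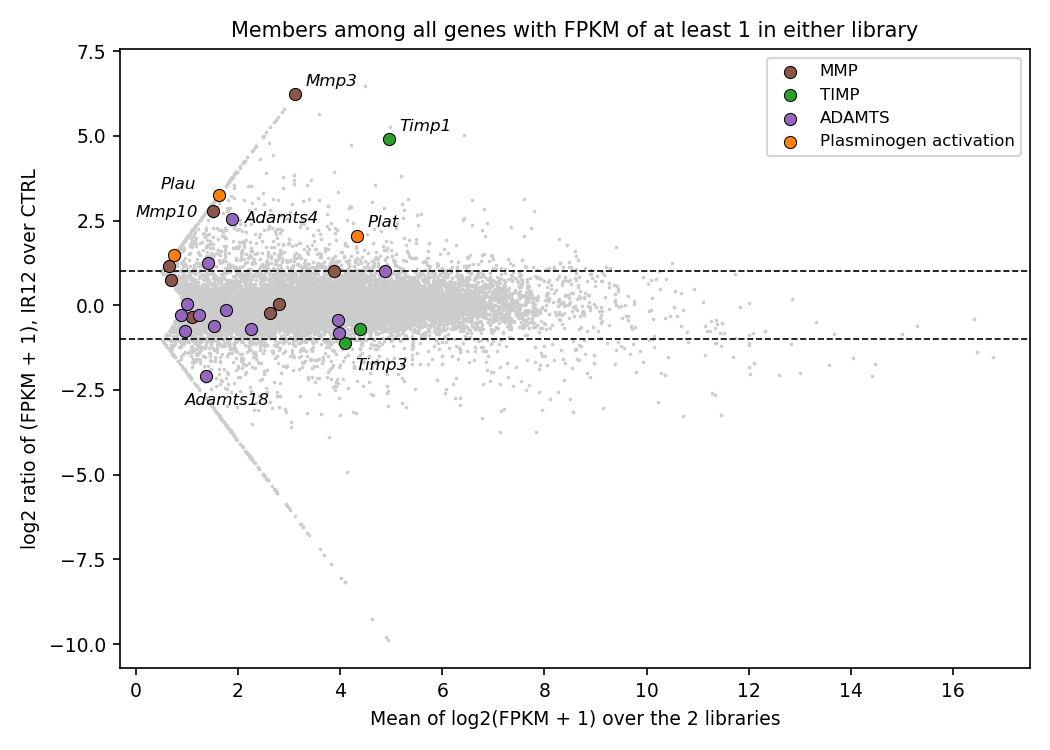
Log2 ratio of (FPKM + 1), IR12 over CTRL, against the mean log2(FPKM + 1) of both libraries, for the 13599 genes that reach FPKM 1 in either library (grey) and for the 27 members (coloured by class). Dashed lines mark 2-fold. Mmp3 and Timp1 lie near the upper edge of the cloud and Timp3 and Adamts18 under the lower line.

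Stromelysins degrade a wide range of matrix proteins and activate other proMMPs, and the genes of stromelysins 1 and 2 sit with other MMP genes in 1 cluster on chromosome 8. In the rn6 coordinates of the table the cluster runs from 5522739 to 5901049, a span of 378 kb that holds 10 members and no other listed gene. From the low to the high end the order is Mmp13, Mmp12, Mmp1b, Mmp3, Mmp1, Mmp10, Mmp8, Mmp27, Mmp20 and Mmp7. The 300-base windows around gene starts in RefSeq (GRCr8), 250 bases before the start and 50 after, cover all 10 of them and 36 of the 48 members. They are shown because 7 of the 10 cluster members hold the letters TGANTCA, the motif that AP-1 (Fos and Jun proteins) binds, while 1 of the other 26 members does, Plaur. Over all 27457 genes with a window the share is 8.04%, and over the 36 members it is 22.2%. The cluster members are neighbouring genes of the same family, so their windows need not be independent of each other. The motif reads the same way on both strands. Each stretch runs from 120 to 11 bases before the start, on the plus strand, with TGANTCA and the TATA box letters TATAAA in capitals. They lie at chr8:12925161-12925270 for Mmp3, chr8:12974587-12974696 for Mmp10, chr8:12866532-12866641 for Mmp12, chr8:13132923-13133032 for Mmp7, chr8:12782709-12782818 for Mmp13, chr8:12943333-12943442 for Mmp1, chr8:13074159-13074268 for Mmp20 and chr1:89181243-89181352 for Plaur.
Mmp3: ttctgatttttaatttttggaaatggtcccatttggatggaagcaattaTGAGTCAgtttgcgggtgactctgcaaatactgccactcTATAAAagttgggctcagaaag
Mmp10: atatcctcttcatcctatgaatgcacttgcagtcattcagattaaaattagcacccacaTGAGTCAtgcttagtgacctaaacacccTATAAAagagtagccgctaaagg
Mmp12: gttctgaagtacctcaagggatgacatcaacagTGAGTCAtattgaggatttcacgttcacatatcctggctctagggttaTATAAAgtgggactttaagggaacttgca
Mmp7: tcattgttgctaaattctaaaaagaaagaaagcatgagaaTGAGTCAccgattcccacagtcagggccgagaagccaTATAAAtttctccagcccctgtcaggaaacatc
Mmp13: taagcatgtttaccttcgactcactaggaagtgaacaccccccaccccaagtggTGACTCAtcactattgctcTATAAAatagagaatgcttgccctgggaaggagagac
Mmp1: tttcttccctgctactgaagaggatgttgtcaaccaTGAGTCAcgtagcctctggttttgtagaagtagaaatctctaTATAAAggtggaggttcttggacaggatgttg
Mmp20: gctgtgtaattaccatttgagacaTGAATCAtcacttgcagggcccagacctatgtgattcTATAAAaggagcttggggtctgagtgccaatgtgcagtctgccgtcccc
Plaur: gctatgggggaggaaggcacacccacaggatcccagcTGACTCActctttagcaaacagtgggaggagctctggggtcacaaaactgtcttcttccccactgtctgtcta

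In the stretch of Mmp3 the AP-1 letters begin 71 bases before the start and those of the TATA box 32 bases before it. The corresponding distances are 61 and 33 bases for Mmp10, 87 and 39 for Mmp12, 80 and 43 for Mmp7, 66 and 47 for Mmp13, 84 and 42 for Mmp1, and 96 and 59 for Mmp20. These 7 cluster genes thus share an arrangement, AP-1 letters upstream of TATAAA on the strand of the gene, that the window of Plaur (AP-1 letters 83 bases before the start) does not show. Over the 27457 genes with a window, 0.608% hold the pair in this order, as do 7.57% of the 2207 genes that hold the AP-1 letters. The order was looked for in all genes only after it was seen in these stretches, and the 7 genes are neighbours of the same family. Outside the printed stretches, Mmp1 has a further TGAATCA 242 bases before its start, and TATAAA occurs again upstream of the AP-1 letters, 140 bases before the start in Mmp7 and, in Mmp10, 196 bases before it and 198 bases before it on the other strand. TATAAA on either strand occurs in 12 of the 36 members with a window (33.3%), beside 15.3% of the 27457 genes. The letters TTCNNNGAA, which STAT factors bind and which also read the same on both strands, occur in 5 (13.9%: Adamts4, Adamts6, Mmp1b, Mmp23 and Mmp8), beside 9.39% of genes. None of these matches shows that a factor was bound. No window was found for Adamts5, Adamts8, Adamts15, Adamts16, Adamts19, Mmp2, Mmp9, Mmp14, Mmp16, Mmp17, Mmp19 and Plat.

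Mmp3 (stromelysin 1, ENSRNOG00000032626) was listed at 0 in CTRL and at an FPKM of 74.2 in IR12. On the log2(FPKM + 1) scale this was the fifth largest rise among the 13599 genes, and in IR12 its level exceeded that of 88.8% of the genes at FPKM 1 or more. Mmp10 (stromelysin 2, ENSRNOG00000032832) had an FPKM of 0.0865 in CTRL against 6.46 in IR12, a log2 ratio of 2.78. The stromelysins of the cluster were thus near or at 0 in CTRL and present in IR12. Mmp3 and Mmp10 are close paralogs, and how reads matching both were assigned is not stated, so the split between them is uncertain. Mmp11 (stromelysin 3), which lies elsewhere, was listed at 0 in both libraries.

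The other members of the cluster were low in both libraries, and 5 of them carry the same motif pair. Mmp12, the macrophage elastase, had an FPKM of 0.245 in CTRL against 1.10 in IR12, a log2 ratio of 0.75 with the pseudocount of 1 used here and 1.80 with a pseudocount of 0.1. Mmp7 (matrilysin) was listed at 0 in CTRL and at 0.919 in IR12, just under the minimum. Mmp13, a collagenase, had 0.514 and 0.412. So among the 7 genes with both motifs, FPKM in IR12 ranged from 0 for Mmp20, the enamel protease, to 74.2 for Mmp3. Mmp1, Mmp1b, Mmp8 and Mmp27 were listed at 0 in CTRL and lay between 0.0213 and 0.255 in IR12. The summed FPKM of the cluster was 0.846 in CTRL and 83.4 in IR12, and Mmp3 made up most of the latter. A value of 0 in the table is no proof of silence: 13562 genes of the table are at 0 in both libraries, among them all 37 mitochondrial genes.

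**Figure D3:**
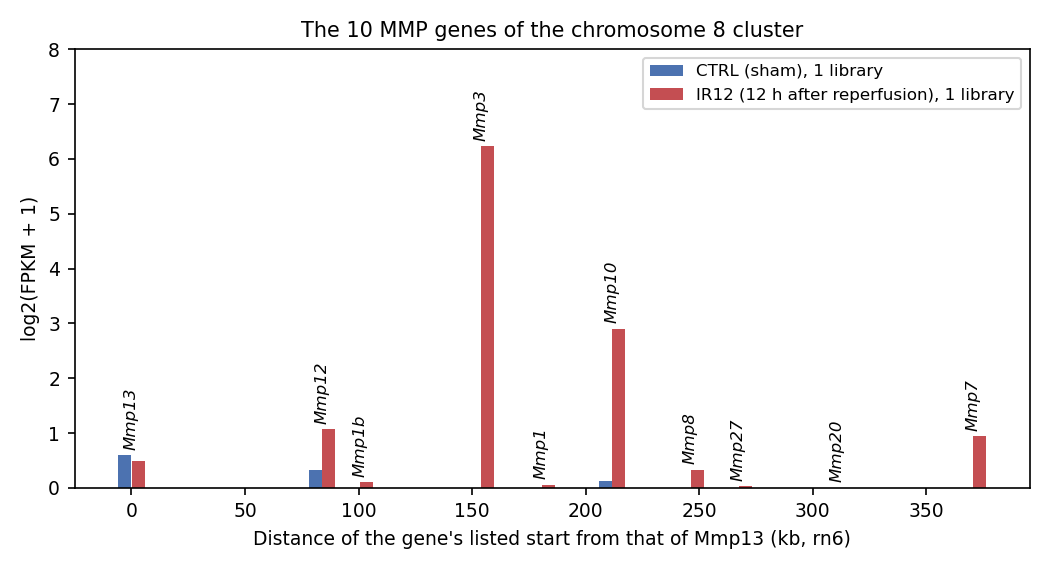
Level of the 10 MMP genes of the chromosome 8 cluster as log2(FPKM + 1), plotted by the distance of each listed start from that of Mmp13, in CTRL (blue) and IR12 (red), 1 library each. Mmp3 and Mmp10 stand above genes on either side of them that remain near 0.

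The gelatinases, which cut denatured collagen and basement membrane collagen, were at low levels. Mmp9 had an FPKM of 0.0441 in CTRL against 1.33 in IR12, a log2 ratio of 1.16. Mmp2 had 0.452 in CTRL against 0.609 in IR12 and stayed under the minimum. Mmp9 was therefore the higher of the pair in IR12 and the lower in CTRL, on the FPKM scale. All 3 collagenases (Mmp1, Mmp8 and Mmp13) were under FPKM 1 in both libraries.

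Among the membrane-type MMPs, Mmp14 (MT1-MMP), which activates proMMP2 at the cell surface, had an FPKM of 9.26 in CTRL against 19.9 in IR12. Its log2 ratio of 1.02 fell just under the 2-fold limit when ratios were centred on the median gene (0.999). Mmp24 had 5.84 in CTRL against 6.08 in IR12, and Mmp16 had 5.64 and 4.70. Mmp15 had 1.43 and 0.899, a log2 ratio of -0.36 that was -0.013 on the TPM scale. These 3 lay within 2-fold, and the direction is not the same under every scaling for Mmp16, which was higher in IR12 on the TPM scale (0.31), or for Mmp24, which was lower when small RNAs were left out of the common sum (-0.0399). Mmp17 was under FPKM 1 in both. In CTRL, Mmp14 had the highest FPKM of the 22 MMP genes, with 38.1% of their sum, and in IR12 Mmp3 had 63.0% and Mmp14 16.9%.

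Timp1 (ENSRNOG00000010208), the inducible inhibitor of secreted MMPs, had an FPKM of 4.71 in CTRL against 169 in IR12. Its log2 ratio of 4.89 ranked 21 among the 13599 genes, and its level moved from above 24.4% to above 96.1% of the genes at FPKM 1 or more. Timp2, which inhibits MMPs and also takes part in proMMP2 activation by Mmp14, had 25.7 in CTRL against 15.4 in IR12, a log2 ratio of -0.70. On the TPM scale the ratio of Timp2 was -0.09, nearly level. Timp3, the TIMP that binds tightly to the matrix and also inhibits ADAMTS proteases, had 24.2 and 10.7. Its log2 ratio of -1.10 became -0.49 on the TPM scale, so that its place past 2-fold depends on the scaling while its direction held in the scalings tried. Timp4 had 0.476 in CTRL against 0.0254 in IR12, under the minimum in both.

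The inhibitors therefore changed places. Timp2 and Timp3 together supplied 46.7% and 43.9% of the summed TIMP FPKM in CTRL and 7.90% and 5.50% in IR12, while the share of Timp1 went from 8.55% to 86.6%. The TIMP sum was 55.1 in CTRL and 195 in IR12, but without Timp1 it was 50.4 and 26.1. Over the 22 MMP genes the sum was 24.3 in CTRL and 118 in IR12, and without Mmp3 it was 24.3 and 43.6. The quotient of MMP sum over TIMP sum was 0.441 in CTRL and 0.605 in IR12, a value that does not depend on how the libraries are scaled to each other. Both sums count transcripts per length, so the quotient is no measure of active enzyme. Each TIMP gene shares its listed locus with other genes: Timp1 with Syn1 (FPKM of 13.6 in CTRL and 6.65 in IR12), Araf (22.2 and 28.0) and LOC102555453 (0.220 and 0.257), Timp2 with Cep295nl (2.68 and 1.21), Timp3 with Syn3 (4.0 and 2.60), and Timp4 with Syn2 (8.81 and 6.16). Whether strand was used in counting is not stated, so reads shared with these neighbours cannot be told apart. At the Timp1 locus, Syn1 and Araf had a higher FPKM than Timp1 in CTRL and a lower one in IR12. Shared reads were not tested.

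**Figure D4:**
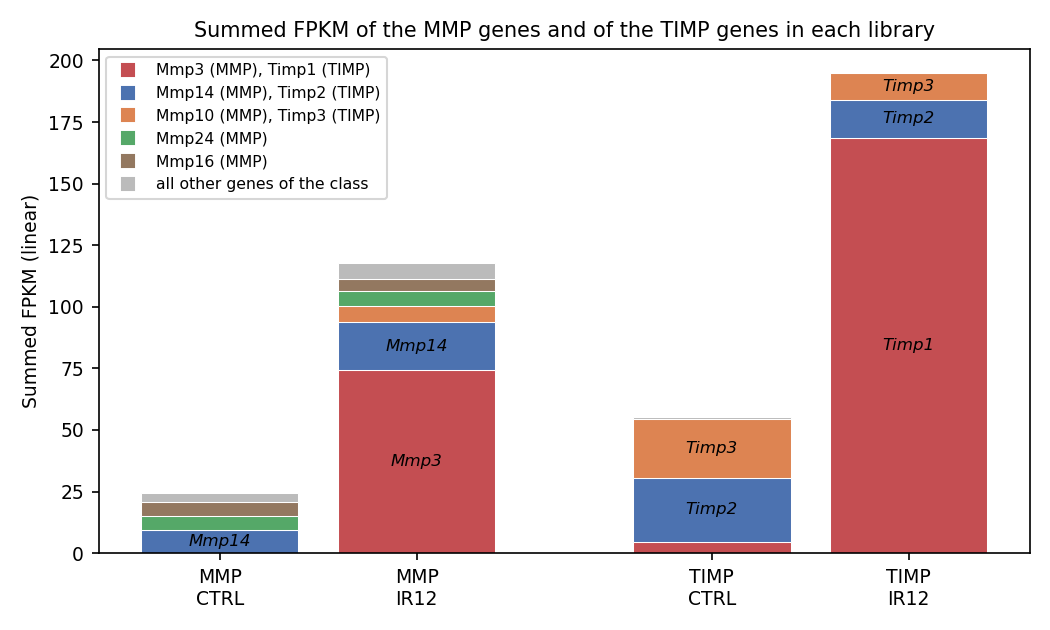
Summed FPKM (linear scale) of the 22 MMP genes and of the 4 TIMP genes in CTRL and IR12, 1 library each, stacked by gene. Mmp3 fills 63.0% of the MMP bar and Timp1 86.6% of the TIMP bar in IR12, and Mmp14, Timp2 and Timp3 are the largest named parts in CTRL.

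The ADAMTS proteases that cut proteoglycans such as versican, aggrecan and neurocan held the 3 higher members of that class. These were 3 of the 5 such genes over the minimum, beside 6.56% of the 13599 genes. Adamts4 and Adamts9 passed the minimum through IR12 alone, as did genes of which 55.7% were at least 2-fold higher. Adamts4 (aggrecanase 1, ENSRNOG00000003538) had an FPKM of 0.537 in CTRL against 7.92 in IR12, a log2 ratio of 2.54. Adamts9, which cuts versican and aggrecan, had 0.719 and 3.11, a log2 ratio of 1.26. Both were thus under FPKM 1 in CTRL. Adamts1 had 19.8 and 40.8, and its log2 ratio of 1.004 was 0.979 after centring on the median gene. Adamts5, the other main aggrecanase, had 17.1 and 12.4, lower as deposited and higher on the TPM scale (0.16). Adamts1 and Adamts5 lie 60 kb apart on chromosome 11 and differed in opposite directions as deposited. In CTRL their FPKM were close, and in IR12 Adamts1 had the highest FPKM of all ADAMTS genes, with 47.6% of the ADAMTS sum against 25.2% in CTRL. Adamts15 had 2.57 and 2.24, and was likewise higher on the TPM scale (0.31). Adamts8, next to Adamts15 on chromosome 8, and Adamts20 stayed under FPKM 1 in both libraries.

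Of the remaining ADAMTS genes over the minimum, 1 was at least 2-fold lower in IR12 and 0 were at least 2-fold higher, beside 6.12% and 6.56% of the 13599 genes, and with so few genes these counts do not set them apart. Adamts18, an orphan protease that has been linked to the development of the eye, had an FPKM of 4.34 in CTRL against 0.257 in IR12, a log2 ratio of -2.09. It was the largest fall among the members and ranked 254 among falls over the 13599 genes, and it passed the minimum through CTRL alone. Adamts3, a procollagen N-proteinase that also processes VEGF-C, had 19.9 in CTRL against 10.8 in IR12, a log2 ratio of -0.82. On the TPM scale the ratio of Adamts3 was -0.21. Adamts6 had 5.05 and 2.72, and Adamts10, which acts on fibrillin microfibrils, had 2.57 and 1.36. Both lay within 2-fold, with log2 ratios of -0.70 and -0.60 (-0.19 and -0.17 on the TPM scale). Adamts12 had 1.55 and 0.507, a log2 ratio of -0.76 that reached -1.45 with a pseudocount of 0.1 and was -0.43 on the TPM scale. Adamts7 had 1.06 and 0.670, a log2 ratio of -0.30 that was -0.005 on the TPM scale. These were low in both libraries. Adamts19 had 1.61 and 1.15, with the opposite direction on the TPM scale (0.09). Adamts17 was level, with 0.986 in CTRL and 1.05 in IR12, and was marginally lower when small RNAs were left out of the common sum (-0.0098). Over all 19 ADAMTS genes the summed FPKM was 78.8 in CTRL and 85.6 in IR12, so as deposited the class kept nearly the same sum (IR12 over CTRL 1.09, or 1.70 on the TPM scale) while Adamts1 and Adamts4 took more of it. Adamts3, Adamts6 and Adamts18 share their listed loci with genes listed at 0 in both libraries.

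All 3 genes of plasminogen activation were at least 2-fold higher, as were 6.56% of the 13599 genes. Plau and Plaur passed the minimum through IR12 alone, as did genes of which 55.7% were at least 2-fold higher. Plat, the tissue-type activator (ENSRNOG00000019018), had an FPKM of 8.82 in CTRL against 39.9 in IR12, a log2 ratio of 2.06. Plau, the urokinase-type activator (ENSRNOG00000010516), was listed at 0 in CTRL and at 8.54 in IR12. Plaur, its receptor at the cell surface, was listed at 0 in CTRL and at 1.80 in IR12. The activators thus differed in starting level: Plat was present in both libraries, whereas Plau and Plaur were above 0 in IR12 alone. Plat had the higher FPKM of the activators in both libraries, and the sum of Plau and Plat was 8.82 in CTRL and 48.4 in IR12.

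The remaining 21 members were under FPKM 1 in both libraries, with the highest values 0.514 in CTRL (Mmp13) and 0.919 in IR12 (Mmp7). Mmp11 and Mmp20 were listed at 0 in both. A further 8 were listed at 0 in CTRL alone: Mmp1, Mmp1b, Mmp7, Mmp8, Mmp27, Mmp28, Adamts13 and Adamts14. The others were Mmp2, Mmp13, Mmp17, Mmp19, Mmp21, Mmp23, Timp4, Adamts2, Adamts8, Adamts16 and Adamts20. As deposited, 11 of the 21 had the higher FPKM in IR12 and 8 the lower. Mmp19 had 0.0360 in CTRL against 0.379 in IR12, and Adamts16 had 0.319 and 0.0769.

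Genes that activate, anchor or inhibit these proteases were followed as a list of 16, of which 13 reached the minimum. Of those, 4 were higher in IR12 by at least 2-fold and 0 were lower by that much, against 6.56% and 6.12% of the 13599 genes, with a median log2 ratio of 0.21 beside 0.02 over the 13599 genes. Serpinb2, a serine protease inhibitor that acts on Plau, was listed at 0 in CTRL and at an FPKM of 4.70 in IR12. It thus passed the minimum through IR12 alone, as did genes of which 55.7% were at least 2-fold higher. Anxa2 and S100a10 form a complex that gathers plasminogen and Plat at the cell surface. Anxa2 had 18.2 in CTRL against 75.3 in IR12, and S100a10 had 84.4 and 580.35. Thbs1, a matrix protein that binds proteases and activates TGF-beta, had 2.24 and 9.62.

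Other regulators lay within 2-fold as deposited. Reck, a membrane-anchored MMP inhibitor, had an FPKM of 15.8 in CTRL against 8.79 in IR12, a log2 ratio of -0.78. Thbs2 had 1.78 and 0.408, a log2 ratio of -0.98 that passed 2-fold when centred on the median gene (-1.01). Reck and Thbs2 were thus lower in IR12 without passing the limit as deposited. On the TPM scale their log2 ratios were -0.18 and -0.64. Tfpi2, a serine protease inhibitor of the matrix, had 1.94 and 3.45 and passed 2-fold on the TPM scale (1.03), Serpine2 (nexin-1) had 5.30 and 6.29, and Furin, which activates membrane-type MMPs, had 5.10 and 6.79. Serpini1 (neuroserpin), the inhibitor of Plat in neurons, had 32.8 and 21.0. Lrp1, the receptor that clears protease and inhibitor complexes, had 14.0 and 8.99, Plgrkt had 12.6 and 11.3, and Bsg had 259 and 222. For these last 4 genes the lower value in IR12 as deposited became a higher one on the TPM scale. Plasminogen itself (Plg) was listed at 0 in CTRL and at 0.0880 in IR12, and Serpinf2, the plasmin inhibitor, had 0.587 and 0.395. A2m was listed at 0 in both, which is no proof of its absence.

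**Figure D5:**
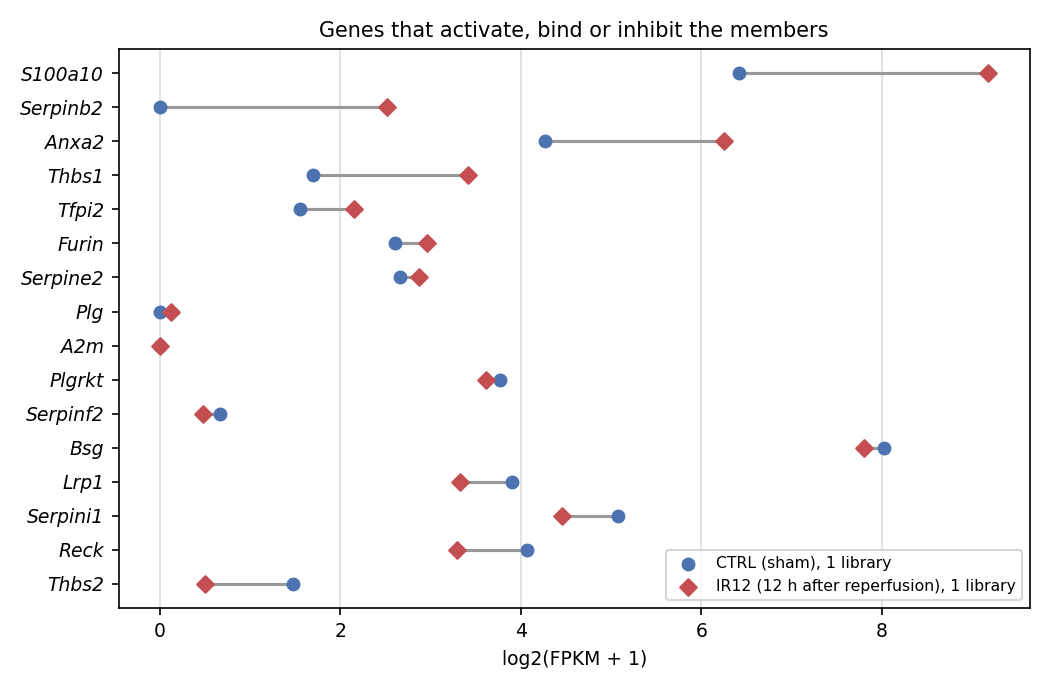
Level of the 16 listed regulators as log2(FPKM + 1) in CTRL (circles) and IR12 (diamonds), 1 library each, ordered by log2 ratio. S100a10, Serpinb2, Anxa2 and Thbs1 are at least 2-fold higher in IR12, and Plg and A2m lie at or near 0.

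The proteoglycans that the ADAMTS aggrecanases cut were listed separately. Ncan (neurocan), a proteoglycan of neural matrix, had an FPKM of 1.34 in CTRL against 15.6 in IR12, a log2 ratio of 2.83. Vcan (versican) had 15.0 and 9.25, a log2 ratio of -0.64 that was -0.04 on the TPM scale. Acan and Bcan were under FPKM 1 in both libraries. The most abundant of the 4 was therefore versican in CTRL and neurocan in IR12. Of 13 ADAMTS-like and ADAM relatives, 11 reached the minimum and 0 were past 2-fold in either direction as deposited, while on the TPM scale 5 were at least 2-fold higher (Adamtsl1, Adam9, Adam12, Adam17 and Adam19), as were 20.7% of the 13599 genes. ADAM genes outside the list were not followed. The most abundant, Adam9, had 62.4 in CTRL against 99.6 in IR12, and Adam17, which sheds membrane proteins and is inhibited by Timp3, had 12.6 and 22.7.

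Markers of several cell types also differed between the libraries, and their part in the members' values was not tested. In bulk RNA, fewer cells of a type and less RNA per cell cannot be told apart. Of 7 neutrophil markers, 4 reached the minimum (S100a8, S100a9, Cxcr2 and Lcn2). All 4 were at least 2-fold higher in IR12, beside 6.56% of the 13599 genes. They passed the minimum through IR12 alone, as did genes of which 55.7% were at least 2-fold higher. The summed FPKM of the list was 0.672 in CTRL and 49.4 in IR12. S100a9 was the most abundant in IR12 with 23.0, and the granule genes Mpo and Elane were listed at 0 in both libraries. The neutrophil list was thus near 0 in CTRL. Of 5 monocyte or macrophage markers, 4 reached the minimum and 3 were at least 2-fold higher. The sums were 11.0 and 87.9, led by Lyz2 with 9.73 and 76.9. Cd14 and Itgam, 2 of those 3, passed the minimum through IR12 alone, as did Cd68, which lay within 2-fold. Ccr2 was listed at 0 in CTRL and at 0.854 in IR12. Of 5 microglia markers, 4 reached the minimum and 0 were past 2-fold, with sums of 12.1 and 12.5 led by Aif1. The direction of that sum reversed when small RNAs were left out of the common sum. As deposited, Cx3cr1 (1.16 and 0.676), P2ry12 (1.67 and 0.650) and Tmem119 (0.231 and 0.0967) were lower in IR12. Aif1 (5.42 and 7.36) was higher and Csf1r (3.61 and 3.71) nearly level, so the sum hides a split. The leukocyte markers were thus low in CTRL, and those of neutrophils and monocytes that reached the minimum were higher in IR12. Every higher member is by definition higher in that same library, so the shared direction links no marker to a member.

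Of 6 Müller glia markers, 4 were at least 2-fold lower in IR12 (Glul, Rlbp1, Slc1a3 and Aqp4) and 1, Gfap, was higher. Their sum was 1160 in CTRL, led by Glul, and 444 in IR12, led by Vim. Gfap, a marker of reactive glia, had 2.95 and 21.9. Of 5 lens markers, 5 were at least 2-fold lower, with sums of 1747 and 203 led by Cryaa, which had 1118 in CTRL against 124 in IR12. Lens RNA was thus much higher in CTRL, and its part in the values of members that were higher there was not tested. Of 5 pigment epithelium markers, 3 reached the minimum and 1 was at least 2-fold lower (Rpe65, with 11.1 and 4.88). The sum, led by Ttr, was 77.3 and 96.6. Without Ttr the sum was 15.5 and 9.18, with Rpe65, Tyr and Best1 lower in IR12 and Pmel nearly level. Of 5 fibroblast and sclera markers, only Pdgfra reached the minimum, and it was at least 2-fold lower (7.28 and 1.88). Pdgfra made up most of the sums of 8.12 and 2.04, and Col1a2 was listed at 0 in both libraries. On the TPM scale Slc1a3 (-0.63), Rpe65 (-0.46) and Pdgfra (-0.999) no longer passed 2-fold, while Vim and Ttr became at least 2-fold higher.

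Vessel, ganglion cell and blood markers were also listed. Of 5 pericyte and smooth muscle markers, 4 reached the minimum and 1 was at least 2-fold lower (Rgs5, the most abundant, with 38.6 and 17.6). The sums were 49.8 and 25.3. Of the endothelial markers in the table, 0 were past 2-fold, with sums of 113 and 72.5, nearly all of it Kdr, which had 108 and 66.8. Cldn5 was also lower in IR12, while Cdh5 (0.883 and 1.63) and Vwf (1.91 and 2.44) were higher, and without Kdr the sum was 5.71 and 5.72. Of 5 retinal ganglion cell markers, 4 reached the minimum and 0 were past 2-fold, with sums of 209 and 160 led by Nefl. The ganglion cell sum, lower in IR12 as deposited, was higher on the TPM scale and the endothelial sum was level there (IR12 over CTRL 1.003), and Rgs5 (-0.46) no longer passed 2-fold there. Red blood cell markers had sums of 20.8 and 35.3, nearly all of it Hbb, which passed 2-fold on the TPM scale alone (1.37). With small RNAs left out of the common sum, P2ry12 (microglia) and Acta2 (smooth muscle) became at least 2-fold lower and Cd68 (macrophages) and Adam12 at least 2-fold higher. These lists and the members come from the same pair of libraries, so a difference in tissue makeup and a difference in regulation cannot be told apart here.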

How the data were processed

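The authors deposited FPKM per gene for both libraries, on rn6. STAR 2.5.2b and Cuffdiff 2.2.0 are named in the labels without their roles, and reads were shortened before use according to the study's methods. The annotation behind the FPKM is not stated, though the study's software instructions name an Ensembl rat annotation for their test run. The labels and the study's methods name a stranded total RNA kit, and only the series description a stranded mRNA kit. Members and gene lists were chosen with earlier results of these data known. Every member over the minimum is named. The genes of the lists were also to be named, but of the longer lists only some are, and 1 gene of the regulator list as first written was left out of the list's counts for a reason other than its values. Log2 ratios used a pseudocount of 1, genes needed an FPKM of at least 1 in at least 1 library, and a difference was counted from 2-fold. With 1 library per group no test was possible. FPKM sums were 1402321 in CTRL and 895199.9 in IR12, of which small non-coding RNAs, recognised by symbol, took 67.9% and 46.2%, so sums do not measure depth. Starts in the table count from 0, and 1 was added. Alternatives were another pseudocount, centring, common sums, and other minimums. Promoter windows came from RefSeq (GRCr8), matched by symbol. Pecam1 and Hba1 are not in the table. Scripts, tested on simulated data, used Python 3.11.15, numpy 2.4.6, pandas 2.3.3 and matplotlib 3.10.9.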

Additional observations from a re-analysis of the deposited data

How the results depend on the processing

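With 11 members at least 2-fold higher, 2 lower and a median log2 ratio of 0.04 as reported, the count of higher members was 12 with a pseudocount of 0.1 (Mmp12 added), 9 after centring on the median gene (Adamts1 and Mmp14 lost), 11 on the TPM scale (the same genes), 8 with a minimum FPKM of 5 (Adamts9, Mmp9 and Plaur lost) and 11 among members above 0 in at least 1 library. With both libraries set to the same sum without small RNAs, which was chosen after seeing the data, it was 10 (Adamts1 and Mmp14 lost, Mmp12 added). The count of lower members moved to 1 on the TPM scale, where Timp3 was lost, and to 1 with a minimum FPKM of 5, where Adamts18 was lost. It was 3 with a pseudocount of 0.1 and without small RNAs, where Adamts12 was added. The median moved to 0.35 on the TPM scale, 1.004 with a minimum of 5 (15 members left) and -0.0399 without small RNAs. It was between 0.02 and 0.06 otherwise. For the regulators, 0 lower genes became 1 with a pseudocount of 0.1, after centring and without small RNAs (Thbs2 each time), 4 higher genes became 5 on the TPM scale (Tfpi2 added) and 3 with a minimum FPKM of 5, and their median of 0.21 moved to 0.75 on the TPM scale, 0.030 with a minimum FPKM of 5, 0.12 over regulators above 0 and 0.14 without small RNAs. Over all genes the TPM scale gave 2817 higher and 436 lower, against 892 and 832, with a median of 0.59. The shares of all genes higher and lower were 8.59% and 8.65% with a pseudocount of 0.1, 6.33% and 6.37% after centring, 6.37% and 6.07% with a minimum of 5 (median 0.05), 4.67% and 4.36% of the 19100 genes above 0 in at least 1 library, and 6.77% and 8.49% without small RNAs (median -0.07). No paired analysis was possible because each group has 1 library, and leaving out a replicate was likewise not possible. The reads behind each FPKM are not in the table, so no counting error is given.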
